A study of Mus musculus with 12 samples.

Results

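Polycomb repressive complex 1 (PRC1) was examined through the mRNA of 10 of its subunits in mouse embryonic stem cells (ESCs). These were the rows of the expression table with the symbols Rnf2, Ring1, Pcgf1, Pcgf2, Bmi1, Pcgf6, Cbx2, Cbx7, Phc1 and Kdm2b, or 10 of 50978 rows. Polyadenylated RNA had been sequenced from 3 lines, with 2 libraries each. The parental line was wild-type E14, a mouse ESC line, grown in medium with 15% serum and LIF, the cytokine that holds ESCs undifferentiated. ESC + H/F-PRAMEL7WT and ESC + H/F-PRAMEL7ΔN are derivatives of E14 grown the same way, in which Cas9 was used to place HA/FLAG-tagged Pramel7 into Rosa26, where it is driven by the constitutive CAG promoter. PRAMEL7 is a protein of the early embryo that recruits the ubiquitin ligase scaffold CUL2, and PRAMEL7ΔN lacks N-terminal residues, 50 per the labels, that hold its contact with CUL2. The study's methods give another length for this deletion and more replicates per line than the libraries used here. The comparison of both derived lines with each other asks which differences go with that N-terminus, but these lines also differed in the level of transgene mRNA, given below. Each derived line came from a single cell, so the transgene, its level and the clone cannot be told apart.

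PRC1 is a family of E3 ubiquitin ligases that place a single ubiquitin on histone H2A. Every form holds a RING subunit and a PCGF subunit. Canonical PRC1 adds a CBX protein, which reads the methylated histone H3 made by Polycomb repressive complex 2 (PRC2), and a PHC protein, which joins complexes into chromatin clusters. Variant PRC1 carries RYBP or YAF2 in their place and is named after its PCGF subunit. In ESCs, PRC1 is known for keeping developmental genes silent at CpG islands and, in the PCGF6 form, germline genes.

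The libraries held 18254246 to 19855031 reads on genes, and the Pearson correlation of the 2 libraries of a line ranged from 0.9903 to 0.9966 across genes on the log2 scale. Values are given as CPM (reads of a gene scaled to all reads on genes), rebuilt from the deposited RPKM with the authors' scaling. Pramel7 itself had 0.258 and 0.217 CPM in parental ESCs, 51.2 and 46.2 CPM in ESC + H/F-PRAMEL7WT and 398 and 431 CPM in ESC + H/F-PRAMEL7ΔN, so the derived lines also differed in transgene mRNA. All 12 ESC markers were above 77 CPM in every library, and their sum was 6313 to 6590 CPM in parental ESCs, 6132 to 6509 CPM in ESC + H/F-PRAMEL7WT and 7082 to 7136 CPM in ESC + H/F-PRAMEL7ΔN. The sum of 6 fibroblast markers was 52.1 to 71.4 CPM in parental ESCs, 25.1 to 26.6 CPM in ESC + H/F-PRAMEL7WT and 46.8 to 53.7 CPM in ESC + H/F-PRAMEL7ΔN, with Twist2 at 0 reads in all 6 libraries and Col3a1 at 0 in all but 1, of ESC + H/F-PRAMEL7ΔN. The 10 markers of differentiated lineages summed to 2.01 to 3.31 CPM. Marker levels thus differed between the lines, and their part in the results was not tested. Counting was not stated to use strand, so reads from the short overlaps of Rnf2 with Trmt1l, Cbx7 with Apobec3 and Kdm2b with Rnf34 could not be told apart. Since whole cultures were sequenced, fewer cells that express a gene and less RNA per cell cannot be told apart.

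Shown first are the sequences around listed start sites of the members whose mRNA differed between lines. PRC1 acts at CpG-rich starts, and these sequences differed widely in their number of CpGs. They are RefSeq windows of GRCm38.p6 (the mm10 build), 250 bases before to 50 after the start, all on the minus strand and written in the direction of transcription, with each CpG in capitals. Kdm2b is shown at 2 of its 4 listed starts, that of the long form at chr5:122989050-122989349 and an internal one at chr5:122900318-122900617, from which a shorter protein without the demethylase domain is made. Rnf2 is at chr1:151500942-151501241, Phc1 at chr6:122340178-122340477 and Pcgf2 at chr11:97699599-97699898.
Kdm2b, long form: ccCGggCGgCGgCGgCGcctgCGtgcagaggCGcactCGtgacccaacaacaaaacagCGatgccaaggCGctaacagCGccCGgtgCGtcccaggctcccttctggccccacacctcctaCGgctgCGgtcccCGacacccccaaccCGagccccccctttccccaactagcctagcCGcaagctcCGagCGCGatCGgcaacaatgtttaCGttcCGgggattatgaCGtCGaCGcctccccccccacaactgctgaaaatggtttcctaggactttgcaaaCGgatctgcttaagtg
Kdm2b, internal start: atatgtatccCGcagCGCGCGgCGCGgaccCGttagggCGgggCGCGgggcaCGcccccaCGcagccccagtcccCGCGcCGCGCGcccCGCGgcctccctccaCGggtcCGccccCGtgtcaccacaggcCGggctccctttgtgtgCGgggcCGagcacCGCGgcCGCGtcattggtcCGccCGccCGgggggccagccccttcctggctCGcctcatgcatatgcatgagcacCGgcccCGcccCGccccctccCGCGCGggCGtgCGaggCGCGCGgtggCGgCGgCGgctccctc
Rnf2: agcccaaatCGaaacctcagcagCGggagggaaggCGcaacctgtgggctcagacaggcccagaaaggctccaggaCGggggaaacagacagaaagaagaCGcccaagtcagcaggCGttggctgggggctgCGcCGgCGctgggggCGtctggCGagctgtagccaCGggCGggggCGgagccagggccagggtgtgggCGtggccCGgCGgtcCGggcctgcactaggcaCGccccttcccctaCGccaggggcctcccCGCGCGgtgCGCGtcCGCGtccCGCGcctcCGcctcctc
Phc1: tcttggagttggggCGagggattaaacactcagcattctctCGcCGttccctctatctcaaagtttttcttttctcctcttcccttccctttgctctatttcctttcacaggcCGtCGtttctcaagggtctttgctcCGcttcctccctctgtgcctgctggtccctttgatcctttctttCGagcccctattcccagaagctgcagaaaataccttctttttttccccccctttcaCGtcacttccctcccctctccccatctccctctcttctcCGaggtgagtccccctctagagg
Pcgf2: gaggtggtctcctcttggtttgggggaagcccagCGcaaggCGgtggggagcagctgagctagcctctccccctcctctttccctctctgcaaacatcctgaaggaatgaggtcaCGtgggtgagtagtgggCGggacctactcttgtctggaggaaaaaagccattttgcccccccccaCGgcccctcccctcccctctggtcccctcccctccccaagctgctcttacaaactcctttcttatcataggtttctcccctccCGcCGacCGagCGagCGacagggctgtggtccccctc

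The internal Kdm2b window held 47 CpGs, more than 98.6% of the 32851 promoter windows in the table, and the window of the long form held 28 (more than 85.8%). Rnf2 held 30 CpGs (more than 88.3%). Phc1 with 9 and Pcgf2 with 10 were close to the median window, which held 7. The E-box CACGTG, which reads the same on both strands and is bound by the MGA-MAX pair of the PCGF6 complex, occurred in the windows of Pcgf2 and Bmi1 among the members and in 7.15% of all windows. TTCCCGC, an E2F motif searched on both strands, was in none of the members' windows and in 4.6% of all. Windows were found for 8 of the 10 members, without Pcgf1 and Cbx2. The annotated genes Pcgf2, Phc1 and Kdm2b extend upstream beyond the windows shown, to chr11:97700497, chr6:122340561 and chr5:122989823. CpGs at any start of Pcgf2 or Phc1 outside its window were thus not counted. The values below are sums over all transcripts of a gene, so the use of one Kdm2b start or the other was not measured.

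In parental ESCs the members spanned a wide range of mRNA levels, which were compared per kilobase of exon. Phc1, a canonical PRC1 subunit, was highest at 106 ± 6.80 CPM per kb (SD, n = 2). Cbx7, the reader of methylated H3 that is typical of ESCs, followed at 46.2 ± 4.09 CPM per kb, then Pcgf2 at 33.7 ± 3.15 and the catalytic subunit Rnf2 (RING1B) at 29.8 ± 1.30 CPM per kb. Pcgf6 at 13.5 ± 2.01 and Cbx2 at 13.4 ± 1.74 CPM per kb did not differ beyond the spread between libraries. Lower still were Kdm2b at 4.06 ± 0.274 CPM per kb, and Ring1 at 3.34 ± 0.510 and Pcgf1 at 3.29 ± 0.184 CPM per kb, whose libraries overlapped. Bmi1 was last at 0.219 ± 0.0205 CPM per kb. Each of the other neighbours in this order was separated in both libraries. Rnf2 and Pcgf2 overlapped in ESC + H/F-PRAMEL7WT, at 27.8 ± 1.18 and 26.9 ± 1.83 CPM per kb. Rnf2 stood above Pcgf2 in both libraries of ESC + H/F-PRAMEL7ΔN, at 34.6 ± 1.97 against 26.3 ± 0.639 CPM per kb.

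**Figure D1:**
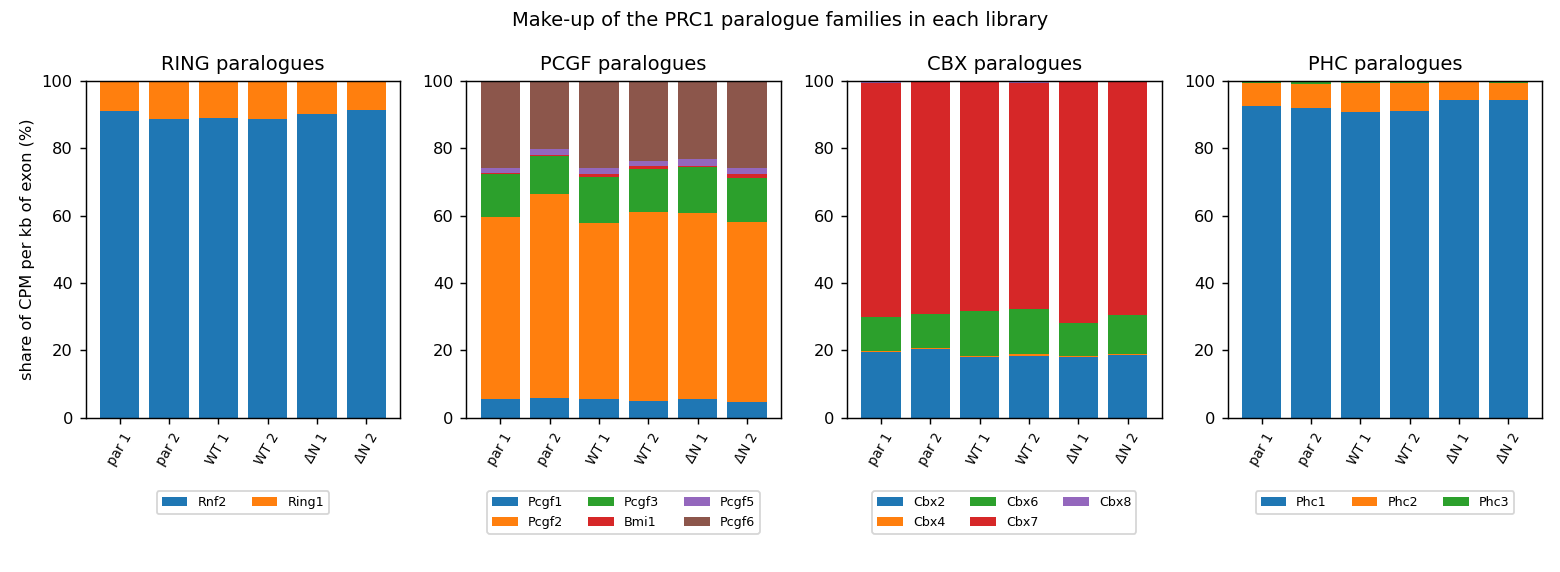
Stacked bars show, for each of the 6 libraries (par, parental ESCs; WT, ESC + H/F-PRAMEL7WT; ΔN, ESC + H/F-PRAMEL7ΔN), the share in percent that each paralogue takes of its family's summed CPM per kilobase of exon. Rnf2, Cbx7 and Phc1 made up most of their families in every library, and the PCGF family was shared mainly among Pcgf2, Pcgf6 and Pcgf3.

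Within the RING, CBX and PHC families of paralogues, 1 gene dominated. Exon length was that of all annotated exons of a gene, merged. Rnf2 made up 88.6 to 91.4% of the RING mRNA per kb over the 6 libraries, and Cbx7 67.3 to 71.4% of the CBX mRNA. Phc1 made up 92.2 ± 0.446% (mean ± SD of 2 libraries) of the PHC mRNA of parental ESCs, 91.0 ± 0.253% in ESC + H/F-PRAMEL7WT and 94.5 ± 0.00462% in ESC + H/F-PRAMEL7ΔN, with no overlap between lines. Its paralogue Phc2 held shares in the reverse order of the lines, with 7.12 ± 0.373%, 8.41 ± 0.292% and 5.02 ± 0.0559%. The PCGF family, which sets the identity of the complex, was more mixed. Pcgf2, of canonical PRC1, held 57.4 ± 4.47% in parental ESCs, Pcgf6 23.0 ± 3.79%, Pcgf3 11.99 ± 0.749% and Pcgf1 5.62 ± 0.226%. Bmi1, the second canonical PCGF subunit, held 0.375 ± 0.0409% there, against 1.04 ± 0.0412% in ESC + H/F-PRAMEL7WT. The summed PCGF level was 58.6 ± 0.918 CPM per kb in parental ESCs, 49.6 ± 0.988 in ESC + H/F-PRAMEL7WT and 48.5 ± 0.0987 in ESC + H/F-PRAMEL7ΔN, and the summed PHC level was 115 ± 7.93, 109 ± 2.80 and 141 ± 6.85 CPM per kb.

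**Figure D2:**
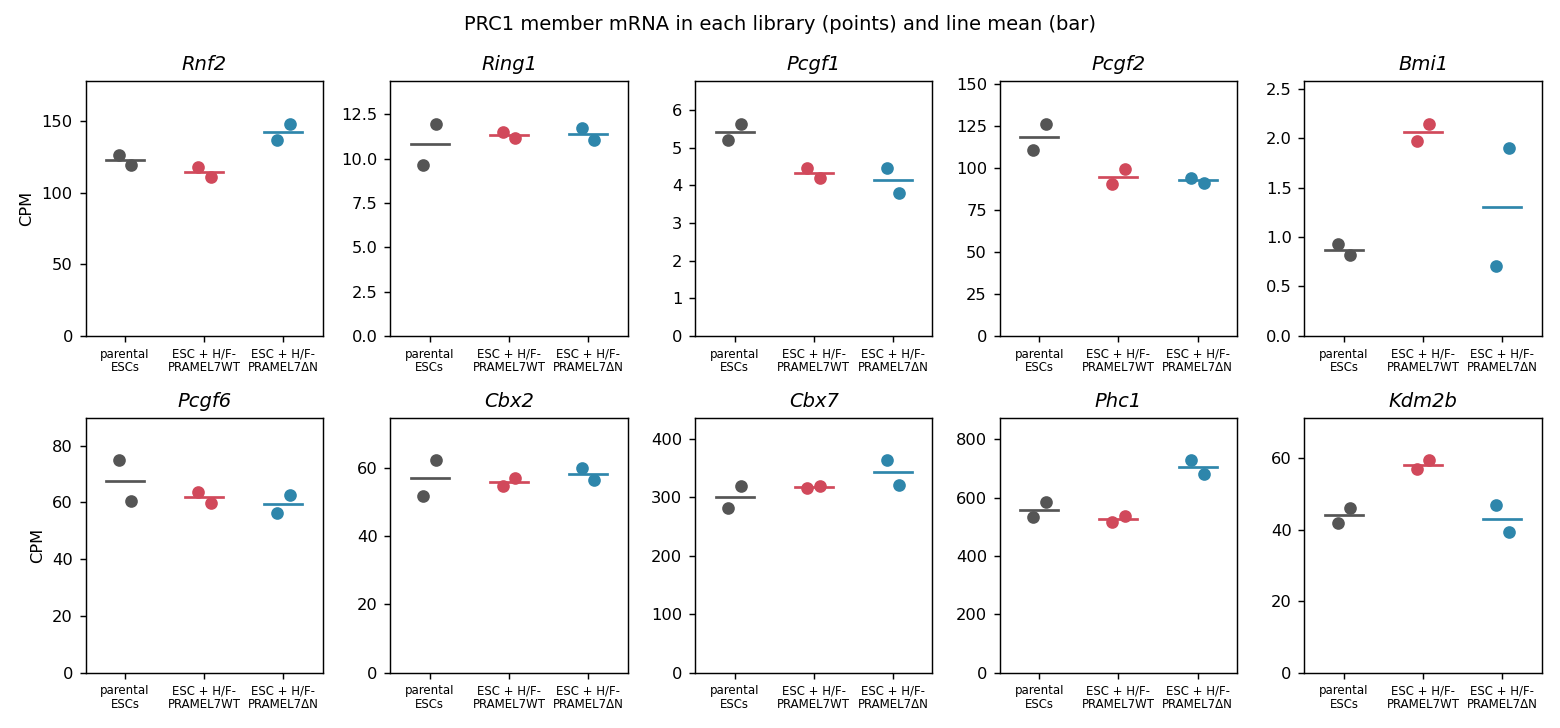
Each panel plots 1 member, with CPM on a linear axis from 0, points for the 2 libraries of a line and a bar for their mean. Kdm2b stood apart in ESC + H/F-PRAMEL7WT (57.0 and 59.5 CPM) and Phc1 in ESC + H/F-PRAMEL7ΔN (729 and 680.0 CPM), while Pcgf2 was lower in both derived lines.

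All 3 pairs of lines were compared with limma on log2(CPM + 1), and p-values were adjusted over the 12914 genes that 2 or more libraries held above 1 CPM. All 10 members were among them, but Bmi1 was above that limit only in both libraries of ESC + H/F-PRAMEL7WT and the second of ESC + H/F-PRAMEL7ΔN. It was thus tested only because of libraries in which it was high, and its values are given below without a test. With 2 dishes per line, the p-values measure the spread between dishes of 1 clone. Between ESC + H/F-PRAMEL7WT and parental ESCs, Kdm2b was higher and Pcgf2 lower at an adjusted p under 0.05, or 2 of 10 members, where 25.0% of all tested genes were called (8.71% higher and 16.3% lower). Between ESC + H/F-PRAMEL7ΔN and parental ESCs, Phc1 was higher and Pcgf2 lower, or 2 of 10, against 19.9% of all genes (6.25% higher and 13.6% lower). Both comparisons use the same parental libraries. Between the derived lines, Kdm2b was higher in ESC + H/F-PRAMEL7WT and Phc1 and Rnf2 were lower there, or 3 of 10, against 20.4% of all genes (10.9% higher and 9.44% lower in ESC + H/F-PRAMEL7WT). These shares were close to those of all genes, and none of the called changes reached a log2 fold change of 0.58. The median log2 fold change of the members was -0.054, 0.054 and 0.012 in these 3 comparisons, beside -0.078, -0.057 and -0.017 over all tested genes. Of all calls in these comparisons, 34.8%, 31.4% and 53.6% were higher, and with libraries scaled by their median ratio 52.8%, 45.1% and 56.6%, so the excess of lower genes against parental ESCs depended on the scaling. In each comparison the libraries of the compared lines did not overlap for 5 of 10 members, against 64.2%, 57.0% and 68.8% of all genes.

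**Figure D3:**
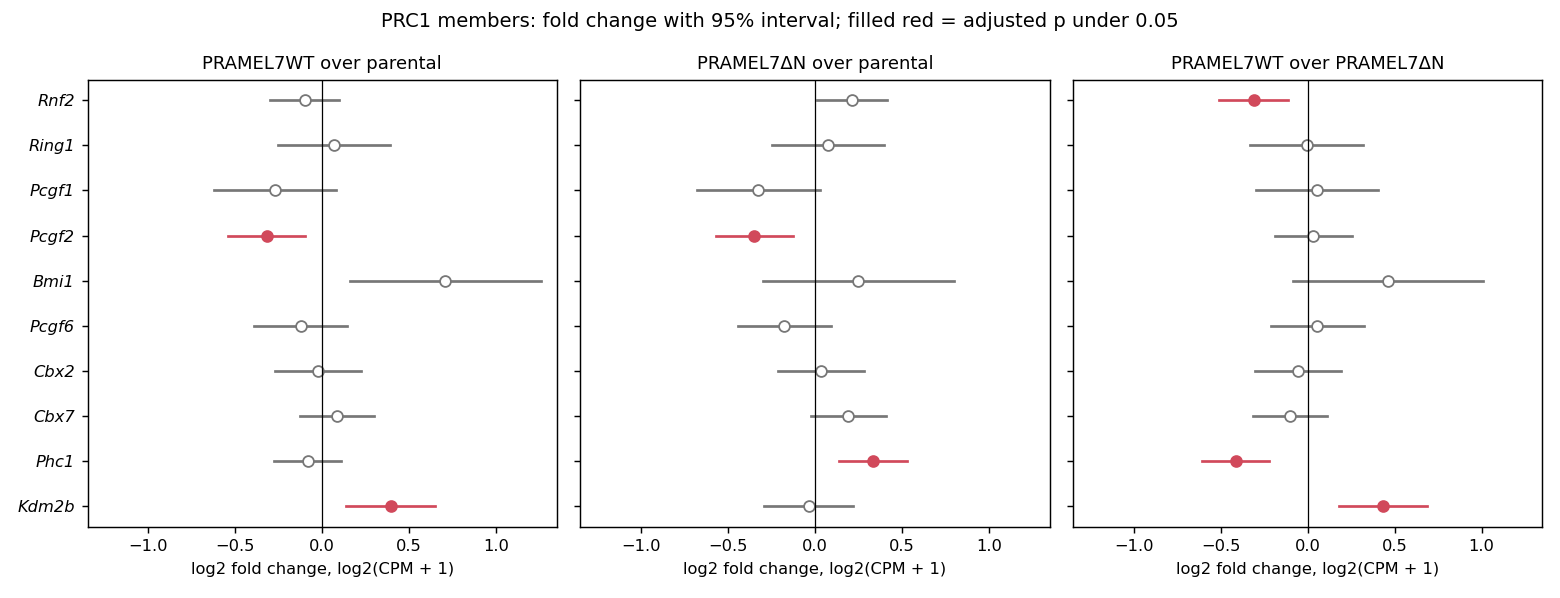
Points give the log2 fold change of each member on the log2(CPM + 1) scale and lines its 95% confidence interval from limma, for ESC + H/F-PRAMEL7WT over parental ESCs, ESC + H/F-PRAMEL7ΔN over parental ESCs and ESC + H/F-PRAMEL7WT over ESC + H/F-PRAMEL7ΔN. Filled red points passed an adjusted p of 0.05, namely Pcgf2 and Kdm2b at the left, Pcgf2 and Phc1 in the middle, and Rnf2, Phc1 and Kdm2b at the right.

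Kdm2b encodes the subunit of variant PRC1.1 that binds unmethylated CpGs and brings the complex to CpG islands. It had 42.0 and 46.2 CPM in parental ESCs, 57.0 and 59.5 CPM in ESC + H/F-PRAMEL7WT and 47.0 and 39.2 CPM in ESC + H/F-PRAMEL7ΔN. Both libraries of ESC + H/F-PRAMEL7WT lay above all 4 others, which overlapped. Its mean there was 58.2 ± 1.70 CPM (SD, n = 2) against 44.1 ± 2.97 CPM in parental ESCs, a log2 fold change of 0.39 (SE 0.11, limma adjusted p = 0.0326). Against ESC + H/F-PRAMEL7ΔN, at 43.1 ± 5.48 CPM, the log2 fold change was 0.43 (SE 0.11, limma adjusted p = 0.0266). ESC + H/F-PRAMEL7ΔN and parental ESCs had a log2 difference of -0.037 with a 95% interval of -0.29 to 0.22. Kdm2b (chr5:122870665-122989823) lies on a chromosome with no shift of its own, since the median log2 fold change of chromosome 5 was -0.027 in ESC + H/F-PRAMEL7WT over parental ESCs and 0.029 over ESC + H/F-PRAMEL7ΔN. The call against parental ESCs held in 13 of 19 alternatives, with limma adjusted p from 0.00414 to 0.196, and that against ESC + H/F-PRAMEL7ΔN held in 13 of 20 alternatives, with limma adjusted p from 6.75e-04 to 0.232. Without the first or the second ESC + H/F-PRAMEL7WT library the adjusted p from limma was 0.148 and 0.196 against parental ESCs and 0.135 and 0.188 against ESC + H/F-PRAMEL7ΔN, and without the second ESC + H/F-PRAMEL7ΔN library the latter was 0.232.

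Pcgf1, the PCGF partner of KDM2B in PRC1.1, had 5.21 and 5.64 CPM in parental ESCs, 4.46 and 4.19 CPM in ESC + H/F-PRAMEL7WT and 4.47 and 3.80 CPM in ESC + H/F-PRAMEL7ΔN. Both derived lines lay below both parental libraries, yet neither difference passed the test. The log2 fold change was -0.27 (SE 0.16, limma adjusted p = 0.224) in ESC + H/F-PRAMEL7WT and -0.33 (SE 0.16, limma adjusted p = 0.183) in ESC + H/F-PRAMEL7ΔN. Between the derived lines it was 0.054, with a 95% interval of -0.30 to 0.41. The PRC1.1 partners thus had different patterns, with Kdm2b called higher in ESC + H/F-PRAMEL7WT and Pcgf1 not called in any comparison.

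Pcgf2 (MEL18), the main PCGF subunit of canonical PRC1 in ESCs, had 111 and 127 CPM in parental ESCs, 90.3 and 99.4 CPM in ESC + H/F-PRAMEL7WT and 94.3 and 91.1 CPM in ESC + H/F-PRAMEL7ΔN. All 4 libraries of the derived lines lay below both parental ones. Relative to parental ESCs, at 119 ± 11.1 CPM (SD, n = 2), it fell, with a log2 fold change of -0.32 (SE 0.10, limma adjusted p = 0.0413) in ESC + H/F-PRAMEL7WT and -0.35 (SE 0.10, limma adjusted p = 0.0343) in ESC + H/F-PRAMEL7ΔN. The derived lines had a difference of 0.031 (95% interval -0.19 to 0.25). The call in ESC + H/F-PRAMEL7WT held in 6 of 19 alternatives, with limma adjusted p from 0.00351 to 0.780, and that in ESC + H/F-PRAMEL7ΔN in 8 of 20 alternatives, with limma adjusted p from 0.00194 to 0.938. It was lost in both without the second parental library (limma adjusted p = 0.0826 and 0.0688). The call in ESC + H/F-PRAMEL7WT was also lost without the first and second library of that line (0.282 and 0.120 from limma) and of ESC + H/F-PRAMEL7ΔN (0.0744 and 0.0743). The call in ESC + H/F-PRAMEL7ΔN was lost without either library of that line (0.139 and 0.179 from limma) or of ESC + H/F-PRAMEL7WT (0.0746 in each case). Pcgf2 lies on chromosome 11, whose genes were lower as a whole in both derived lines, as described below.

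Bmi1 (PCGF4, chr2:18677018-18686629), the paralogue that takes the place of PCGF2 in many differentiated cells, was close to the limit of detection. Its reads numbered 18 and 15 for parental ESCs, 39 for each library of ESC + H/F-PRAMEL7WT and 14 and 36 for ESC + H/F-PRAMEL7ΔN, or 0.929 and 0.814 CPM in parental ESCs, 1.97 and 2.15 CPM in ESC + H/F-PRAMEL7WT and 0.703 and 1.90 CPM in ESC + H/F-PRAMEL7ΔN. ESC + H/F-PRAMEL7WT lay above parental ESCs in both libraries, while the libraries of ESC + H/F-PRAMEL7ΔN fell on either side. On average it was 2.37-fold higher in ESC + H/F-PRAMEL7WT than in parental ESCs, and on the log2(CPM + 1) scale, which understates changes of low genes, the differences were 0.71 in ESC + H/F-PRAMEL7WT over parental ESCs, 0.25 in ESC + H/F-PRAMEL7ΔN over parental ESCs and 0.46 between the derived lines. Commd3, which ends just upstream of Bmi1 on chromosome 2 and was singled out after its values were seen, rose in ESC + H/F-PRAMEL7WT by a log2 fold change of 0.98 (limma adjusted p = 0.0158), and reads that run through both genes could not be assigned.

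Pcgf6 (chr19:47033617-47050906), which defines the variant PRC1.6 at germline gene promoters, had 74.8 and 60.5 CPM in parental ESCs, 63.8 and 59.7 CPM in ESC + H/F-PRAMEL7WT and 56.3 and 62.7 CPM in ESC + H/F-PRAMEL7ΔN. The libraries overlapped in every comparison, and the parental ones lay furthest apart. Its log2 fold changes were -0.12 (95% interval -0.39 to 0.14) in ESC + H/F-PRAMEL7WT, -0.18 (-0.44 to 0.089) in ESC + H/F-PRAMEL7ΔN and 0.054 (-0.21 to 0.32) between them. None of the 3 passed, with limma adjusted p of 0.472, 0.338 and 0.773, but without the second parental library that in ESC + H/F-PRAMEL7ΔN was 0.0338.

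Rnf2 encodes RING1B, the main catalytic subunit. It had 127 and 119 CPM in parental ESCs, 118 and 111 CPM in ESC + H/F-PRAMEL7WT and 137 and 148 CPM in ESC + H/F-PRAMEL7ΔN. ESC + H/F-PRAMEL7ΔN lay above both other lines, and ESC + H/F-PRAMEL7WT just below parental ESCs, without overlap. Between the derived lines Rnf2 was lower in ESC + H/F-PRAMEL7WT, with a log2 fold change of -0.31 (SE 0.089, limma adjusted p = 0.0351). Neither line differed from parental ESCs past the threshold, with -0.10 (SE 0.089, limma adjusted p = 0.434) in ESC + H/F-PRAMEL7WT and 0.21 (SE 0.089, limma adjusted p = 0.127) in ESC + H/F-PRAMEL7ΔN. The latter did pass in 2 of 20 alternatives. The call between the derived lines held in 10 of 20 alternatives, with limma adjusted p from 0.00206 to 0.258. It was lost without the first or second ESC + H/F-PRAMEL7WT library (0.142 and 0.258 from limma) and the first or second ESC + H/F-PRAMEL7ΔN library (0.0845 and 0.254). Ring1 (RING1A, chr17:34020792-34024680), the minor catalytic paralogue, had 9.65 and 11.99 CPM in parental ESCs, 11.5 and 11.2 CPM in ESC + H/F-PRAMEL7WT and 11.7 and 11.0 CPM in ESC + H/F-PRAMEL7ΔN. Its libraries overlapped in all comparisons, with log2 fold changes of 0.069 (95% interval -0.26 to 0.39), 0.075 (-0.25 to 0.40) and -0.0059 (-0.33 to 0.32).

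Phc1 encodes the Polyhomeotic subunit that clusters canonical PRC1. It had 533 and 584 CPM in parental ESCs, 517 and 538 CPM in ESC + H/F-PRAMEL7WT and 729 and 680.0 CPM in ESC + H/F-PRAMEL7ΔN. ESC + H/F-PRAMEL7ΔN stood above all 4 other libraries, which overlapped. The log2 fold change was 0.33 (SE 0.086, limma adjusted p = 0.0244) for ESC + H/F-PRAMEL7ΔN over parental ESCs, -0.42 (SE 0.086, limma adjusted p = 0.00963) for ESC + H/F-PRAMEL7WT over ESC + H/F-PRAMEL7ΔN and -0.083 (SE 0.086, limma adjusted p = 0.505) for ESC + H/F-PRAMEL7WT over parental ESCs. The call in ESC + H/F-PRAMEL7ΔN over parental ESCs held in 11 of 20 alternatives, with limma adjusted p from 0.00189 to 0.286, and was lost without the first or second library of ESC + H/F-PRAMEL7ΔN (0.180 and 0.0805 from limma) or of ESC + H/F-PRAMEL7WT (0.0655 and 0.0649). The call between the derived lines held in 15 of 20 alternatives, with limma adjusted p from 2.74e-04 to 0.985. It was lost without the first or second ESC + H/F-PRAMEL7WT library (0.111 and 0.0761 from limma) or ESC + H/F-PRAMEL7ΔN library (0.0815 and 0.0534). Phc1 lies on chromosome 6, whose median differed between the derived lines, though not in all of its segments, as described below.

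Cbx7 (chr15:79915807-79971119), the main CBX subunit in ESCs, had 281 and 319 CPM in parental ESCs, 317 and 319 CPM in ESC + H/F-PRAMEL7WT and 363 and 322 CPM in ESC + H/F-PRAMEL7ΔN. Both libraries of ESC + H/F-PRAMEL7ΔN lay above the others, by little in the second. No comparison passed, with log2 fold changes of 0.088 (SE 0.10, limma adjusted p = 0.527) in ESC + H/F-PRAMEL7WT, 0.19 (SE 0.10, limma adjusted p = 0.197) in ESC + H/F-PRAMEL7ΔN and -0.10 (SE 0.10, limma adjusted p = 0.467) between them. Cbx7 was called in ESC + H/F-PRAMEL7ΔN over parental ESCs without the second parental library (0.0367 from limma). Cbx2, a CBX subunit able to compact chromatin, had 51.9 and 62.4 CPM in parental ESCs, 54.7 and 57.1 CPM in ESC + H/F-PRAMEL7WT and 60.1 and 56.4 CPM in ESC + H/F-PRAMEL7ΔN, with overlap in all comparisons. Its log2 fold changes were -0.025 (95% interval -0.27 to 0.22), 0.033 (-0.21 to 0.28) and -0.058 (-0.30 to 0.19), so the mRNA of Cbx2 was not seen to follow that of Pcgf2, which lies on the same chromosome.

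**Figure D4:**
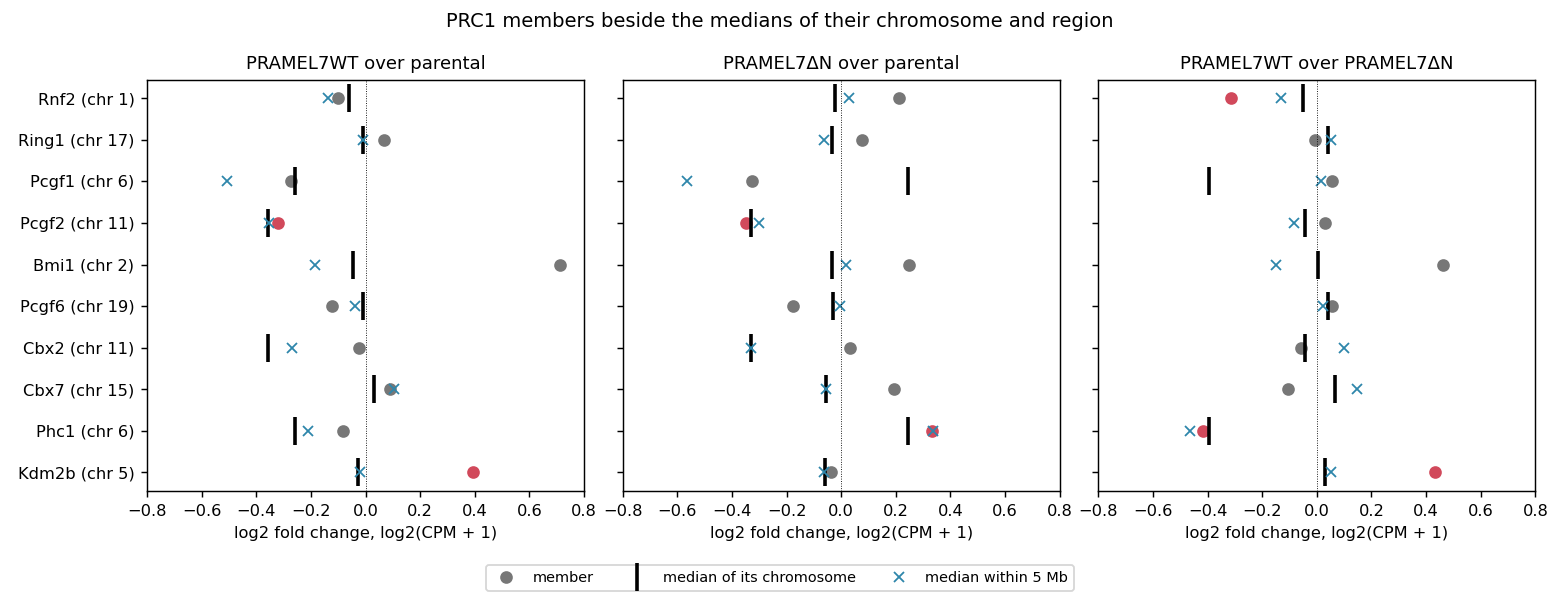
For each member and comparison, a point gives its log2 fold change on log2(CPM + 1) (red, adjusted p under 0.05), a vertical bar the median of the tested genes on its chromosome and a cross the median of those within 5 Mb. Pcgf2 and Phc1 sat close to the medians of their surroundings where they were called, and Kdm2b sat away from both.

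Some of these differences were shared by many genes of the same chromosome. On chromosome 11, which carries Pcgf2 (chr11:97688823-97700497) and Cbx2 (chr11:119022962-119031270), the median log2 fold change of 1102 tested genes was -0.36 in ESC + H/F-PRAMEL7WT and -0.33 in ESC + H/F-PRAMEL7ΔN over parental ESCs, and 45.8% and 39.3% of its genes were called lower. Over the 191 tested genes within 5 Mb of Pcgf2 the medians were -0.35 and -0.30. Its tested neighbours Mllt6, Cisd3, Psmb3 and Pip4k2b had log2 fold changes of -0.37, -0.40, -0.25 and -0.43 in ESC + H/F-PRAMEL7WT. Pcgf2 at -0.32 and -0.35 thus lay close to the genes around it. When the median of its chromosome was subtracted in each library, Pcgf2 had log2 fold changes of 0.042 in ESC + H/F-PRAMEL7WT (limma adjusted p = 0.780) and -0.014 in ESC + H/F-PRAMEL7ΔN (0.938). Cbx2 instead passed the threshold, at 0.34 (limma adjusted p = 0.0451, over all alternatives 0.0451 to 0.986) in ESC + H/F-PRAMEL7WT and 0.37 (0.0375, over all alternatives 0.0375 to 0.974) in ESC + H/F-PRAMEL7ΔN.

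On chromosome 6, which carries Phc1 (chr6:122317731-122340561) and Pcgf1 (chr6:83077869-83080855), the median over 603 tested genes was -0.26 in ESC + H/F-PRAMEL7WT, 0.25 in ESC + H/F-PRAMEL7ΔN and -0.39 between the derived lines, and 47.3% of its genes were called lower in ESC + H/F-PRAMEL7WT than in ESC + H/F-PRAMEL7ΔN. Within 5 Mb of Phc1, 92 tested genes had medians of 0.34 in ESC + H/F-PRAMEL7ΔN over parental ESCs and -0.46 between the derived lines. The neighbours M6pr and Rimklb were higher in ESC + H/F-PRAMEL7ΔN, with log2 fold changes of 0.42 and 0.40, while Gm8430 with 0.51 and A2m with -0.13 did not pass (limma adjusted p = 0.312 and 0.391). With the chromosome median subtracted, Phc1 had 0.15 in ESC + H/F-PRAMEL7ΔN over parental ESCs (limma adjusted p = 0.286) and -0.0030 between the derived lines (0.985). The segment around Pcgf1 differed from the rest of the chromosome. Its 71 tested genes had medians of -0.51 in ESC + H/F-PRAMEL7WT and -0.56 in ESC + H/F-PRAMEL7ΔN over parental ESCs. Pcgf1, at -0.27 and -0.33 without passing the test, lay closer to 0 than these medians. Between the derived lines the median of this segment was 0.014. The shift of chromosome 6 was thus not shared by all of its segments, and subtracting the chromosome median does not follow such segments.

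Kdm2b kept both calls after this subtraction, with 0.43 over parental ESCs (limma adjusted p = 0.0235) and 0.40 over ESC + H/F-PRAMEL7ΔN (0.0319). The 104 tested genes within 5 Mb of it had medians of -0.020 and 0.052. Its 4 tested neighbours, singled out after their values were seen, all had values above 0 in ESC + H/F-PRAMEL7WT over parental ESCs. Anapc5 had 0.35 and passed the test (limma adjusted p = 0.0167), while Rnf34, A930024E05Rik and Orai1 had 0.17, 0.30 and 0.22. Between the derived lines Anapc5 had 0.50 (limma adjusted p = 0.00356), more than Kdm2b itself, A930024E05Rik 0.023 and Orai1 -0.43. Rnf2, on chromosome 1 (chr1:151458004-151500955), had -0.26 between the derived lines after the subtraction (0.0605 from limma, over all alternatives 0.00206 to 0.258), just short of the threshold. The median of chromosome 1 was -0.050, and that of the 38 tested genes within 5 Mb of Rnf2 was -0.13. Its 4 tested neighbours, also singled out after their values were seen, all had values below 0 between the derived lines. Swt1 had -0.30, Trmt1l -0.086 and Fam129a -0.13 without passing, and Edem3 had -0.39 (limma adjusted p = 0.0171).

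The same comparisons were made for 31 other genes of PRC1. Over parental ESCs, 2 were higher (Bcor and Cbx6) in ESC + H/F-PRAMEL7WT and 6 lower (Bcorl1, Csnk2a1, Dcaf7, Mga, Scml2 and Skp1a), and this split was 4 and 3 under median-ratio scaling. For ESC + H/F-PRAMEL7ΔN, 2 were higher (Cbx3 and Rybp) and 6 lower (Auts2, Bcor, Bcorl1, Dcaf7, Scml2 and Yaf2), and 4 and 5 under median-ratio scaling. Between the derived lines 6 were higher in ESC + H/F-PRAMEL7WT (Auts2, Bcor, Fbrsl1, Phc2, Scmh1 and Scml2) and 4 lower (Cbx3, E2f6, Mga and Rybp), the same counts as under median-ratio scaling. These calls compare with 8.71% of all genes higher and 16.3% lower in ESC + H/F-PRAMEL7WT, 6.25% and 13.6% in ESC + H/F-PRAMEL7ΔN, and 10.9% and 9.44% between the derived lines. The medians of -0.098, -0.10 and 0.026 lay within 0.05 of those of all genes. After subtraction of chromosome medians, lower calls fell to 2 and 3 against parental ESCs and to 2 between the derived lines. Higher calls then numbered 3, 2 and 6. Of the genes named here, Dcaf7 and Skp1a lie on chromosome 11, and Cbx3 and Rybp on chromosome 6. Leaving out 1 library gave 1 to 12, 2 to 14 and 3 to 14 calls in the 3 comparisons, and the fewest, here and in the lists below, without a library of a compared derived line. Scml2, an X-linked canonical PRC1 partner with a sterile alpha motif, had the largest log2 fold change of the 31 in each comparison. Its level was 48.2 ± 4.28 CPM (mean ± SD of 2 libraries) for parental ESCs, 7.09 ± 0.0639 for ESC + H/F-PRAMEL7WT and 2.46 ± 0.421 for ESC + H/F-PRAMEL7ΔN, with log2 fold changes of -2.60 (SE 0.15, limma adjusted p = 2.90e-05) and -3.83 (SE 0.15, limma adjusted p = 1.94e-06) and, between the derived lines, 1.23 (SE 0.15, limma adjusted p = 6.84e-04). The last of these passed in 19 of 20 alternatives, with limma adjusted p from 5.33e-06 to 0.204. Every library of both derived lines was thus far below the parental ones.

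Bcor and Auts2, subunits of PRC1.1 and of the AUTS2 form, were both higher in ESC + H/F-PRAMEL7WT than in ESC + H/F-PRAMEL7ΔN. Bcor, the scaffold that links PCGF1 to KDM2B, had 61.7 and 59.5 CPM in parental ESCs, 80.0 and 76.4 CPM in ESC + H/F-PRAMEL7WT and 43.9 and 43.2 CPM in ESC + H/F-PRAMEL7ΔN. It was higher in ESC + H/F-PRAMEL7WT than in ESC + H/F-PRAMEL7ΔN by a log2 fold change of 0.83 (SE 0.091, limma adjusted p = 3.96e-04), higher in ESC + H/F-PRAMEL7WT than in parental ESCs (log2 fold change 0.36, SE 0.091, limma adjusted p = 0.0189) and lower in ESC + H/F-PRAMEL7ΔN (log2 fold change -0.47, SE 0.091, limma adjusted p = 0.00702). The call against parental ESCs was lost in ESC + H/F-PRAMEL7WT without its first or second library (0.169 and 0.111 from limma), and in ESC + H/F-PRAMEL7ΔN without its first or second library (0.0595 and 0.0624) or with the median of the X chromosome subtracted (0.0817, over all alternatives 4.58e-04 to 0.0817). Like Kdm2b, it had its highest values in ESC + H/F-PRAMEL7WT. Its paralogue Bcorl1 fell in ESC + H/F-PRAMEL7ΔN (log2 fold change -0.75, SE 0.17, limma adjusted p = 0.0129, not without either library of that line, 0.0825 and 0.0854). Auts2, a PRC1 partner linked to gene activation in neurons, had 6.34 ± 0.372 CPM in ESC + H/F-PRAMEL7ΔN against 14.3 ± 3.27 in parental ESCs, a log2 fold change of -1.05 (SE 0.18, limma adjusted p = 0.00410), and was higher in ESC + H/F-PRAMEL7WT than in ESC + H/F-PRAMEL7ΔN by 1.17 (SE 0.18, limma adjusted p = 0.00226). Yaf2, which stands in for RYBP, fell in ESC + H/F-PRAMEL7ΔN (log2 fold change -0.69, SE 0.15, limma adjusted p = 0.0135, not without its first or second library, 0.0745 and 0.0932).

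Of the PRC1.6 subunits, Cbx3 (HP1γ), E2f6 and Mga were called lower in ESC + H/F-PRAMEL7WT than in ESC + H/F-PRAMEL7ΔN, E2F6 and MGA being DNA-binding proteins. L3mbtl2, Tfdp1, Hdac1 and Hdac2 had log2 fold changes of 0.13, 0.13, 0.094 and 0.13 that did not pass. Max and Wdr5, also uncalled, had lower means in ESC + H/F-PRAMEL7WT (92.2 and 486 CPM) than in ESC + H/F-PRAMEL7ΔN (93.9 and 590 CPM), without overlap for Wdr5. Genes near Cbx3 were not examined. Cbx3 had -0.65 (SE 0.12, limma adjusted p = 0.00586), but it lies on chromosome 6 and had -0.24 after subtraction of the chromosome median (limma adjusted p = 0.190, over all alternatives 5.87e-06 to 0.190). Its call was also lost without the first or second ESC + H/F-PRAMEL7WT library (0.0713 and 0.0540 from limma) and without the first ESC + H/F-PRAMEL7ΔN library (0.0580).

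**Figure D5:**
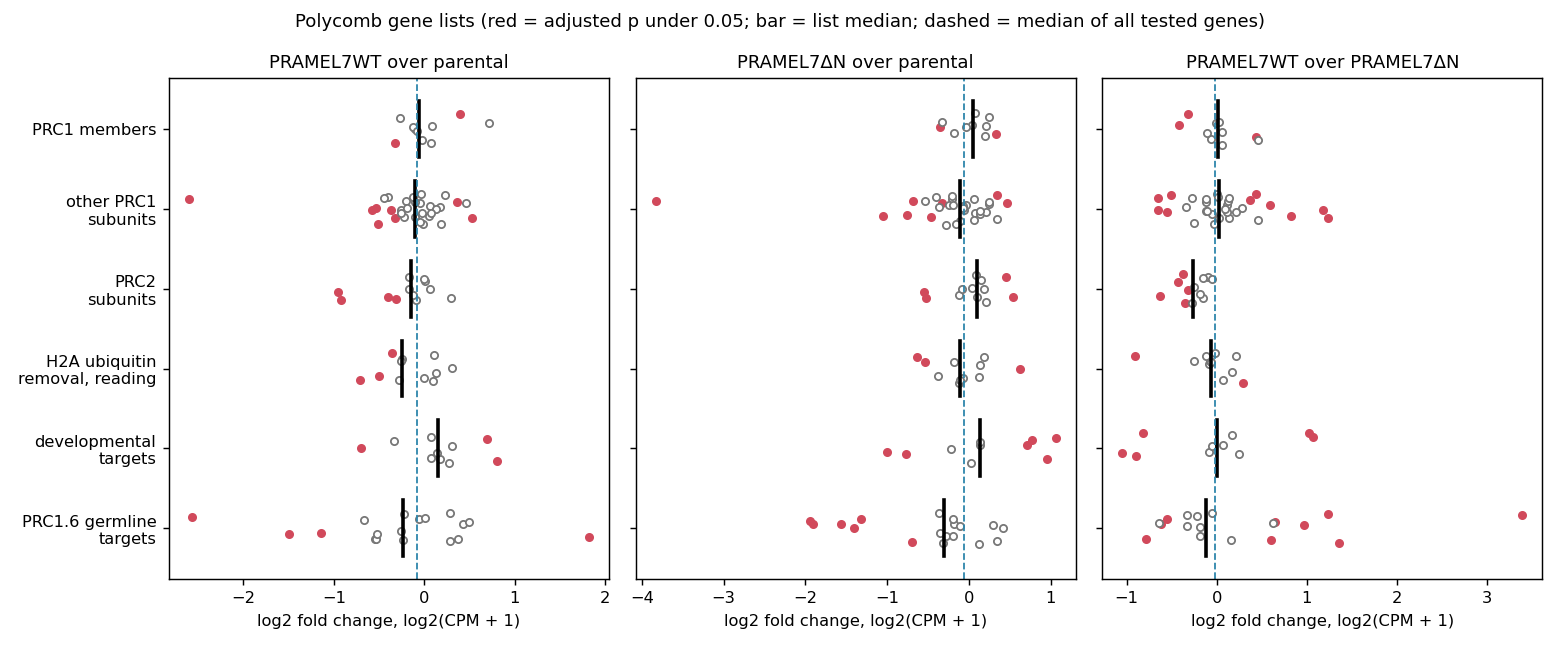
Each point is 1 tested gene of a Polycomb list, placed by its log2 fold change on log2(CPM + 1) (red, adjusted p under 0.05), with the list median as a bar and the median of all tested genes as a dashed line; vertical spread is random and the 3 panels have different ranges. All 12 PRC2 subunits had values below 0 in ESC + H/F-PRAMEL7WT over ESC + H/F-PRAMEL7ΔN, and the PRC1 members stayed within 0.72 of 0 in every comparison.

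PRC2, which methylates H3 at lysine 27 and whose mark canonical PRC1 reads, was examined through 12 subunits. Against parental ESCs, 4 of 12 subunits were lower in ESC + H/F-PRAMEL7WT and none higher (Ezh1, Suz12, Jarid2 and Mtf2), where 16.3% of all genes were lower and 8.71% higher. For ESC + H/F-PRAMEL7ΔN, 2 were higher (Ezh2 and Phf19) and 2 lower (Ezh1 and Suz12), where 6.25% of all genes were higher and 13.6% lower. Between the derived lines, all 12 had log2 fold changes below 0, from -0.63 to -0.049 with a median of -0.27 against -0.017 over all genes, and 5 were called lower, against 9.44% of all genes. With chromosome medians subtracted 11 of 12 were below 0 and 3 were called. The genes near Ezh2, on chromosome 6, were not examined, so whether Ezh2 followed its own segment was not tested. Leaving out 1 library gave 2 to 5, 1 to 7 and 1 to 6 calls. Suz12, a core subunit, had 222 and 214 CPM in parental ESCs, 107 and 122 CPM in ESC + H/F-PRAMEL7WT and 139 and 160.2 CPM in ESC + H/F-PRAMEL7ΔN, and fell in ESC + H/F-PRAMEL7WT with a log2 fold change of -0.92 (SE 0.10, limma adjusted p = 8.61e-04). Ezh1, the minor catalytic subunit, had -0.96 (SE 0.10, limma adjusted p = 8.18e-04) in ESC + H/F-PRAMEL7WT. Both lie on chromosome 11 and in ESC + H/F-PRAMEL7WT stayed below it after subtraction, with -0.56 (0.00568) and -0.59 (0.00362) from limma, while Jarid2 and Mtf2 lost their calls (0.0506 and 0.0759 over ranges for all alternatives of 0.00160 to 0.0998 and 0.0208 to 0.935). The calls of Suz12 and Ezh1 in ESC + H/F-PRAMEL7ΔN were lost by the subtraction, which left -0.21 and -0.19 (limma adjusted p = 0.208 and 0.220, over all alternatives 2.24e-06 to 0.208 and 2.74e-05 to 0.220). Ezh2, the main catalytic subunit, was lower in ESC + H/F-PRAMEL7WT than in ESC + H/F-PRAMEL7ΔN, with -0.63 (SE 0.10, limma adjusted p = 0.00233), and its gene lies on chromosome 6, where it had -0.22 after subtraction (0.148 from limma, over all alternatives 2.41e-06 to 0.148).

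The genes that remove or read H2A ubiquitin numbered 11. Against parental ESCs, 3 were lower in ESC + H/F-PRAMEL7WT (Mbd5, Dnajc2 and Usp16). In ESC + H/F-PRAMEL7ΔN, 2 were lower (Mbd5 and Asxl1) and 1 higher (Asxl3). Between the derived lines, 1 was higher in ESC + H/F-PRAMEL7WT (Asxl1) and 1 lower (Asxl3). Of all tested genes, 25.0%, 19.9% and 20.4% were called in these comparisons. Asxl3 had 0.825 and 1.08 CPM in parental ESCs, 0.658 and 0.551 CPM in ESC + H/F-PRAMEL7WT and 2.01 and 2.01 CPM in ESC + H/F-PRAMEL7ΔN and passed the limit of 1 CPM in 2 libraries only through ESC + H/F-PRAMEL7ΔN, so the direction of its calls was fixed by that filter. The medians were -0.24, -0.11 and -0.058, and leaving out 1 library gave 0 to 5, 1 to 5 and 0 to 2 calls. Mbd5, a partner of the BAP1 deubiquitinase, was measured at 7.12 ± 0.737 CPM (mean ± SD of 2 libraries) for parental ESCs, 3.97 ± 0.459 for ESC + H/F-PRAMEL7WT and 4.25 ± 0.334 for ESC + H/F-PRAMEL7ΔN. It fell in both, with log2 fold changes of -0.71 (SE 0.16, limma adjusted p = 0.0133) and -0.63 (SE 0.16, limma adjusted p = 0.0241). These calls were lost without the first or second ESC + H/F-PRAMEL7WT library in the former (0.119 and 0.0631 from limma) and, in the latter, without the second parental library (0.0599) or either ESC + H/F-PRAMEL7ΔN library (0.154 and 0.0871).

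Of 44 developmental genes that Polycomb is known to silence in ESCs, 34 had too few reads to be tested. Of the other 10, 2 were higher (Cdkn2a and Gata4) and 1 lower (Msx2) in ESC + H/F-PRAMEL7WT, where 25.0% of all genes were called. In ESC + H/F-PRAMEL7ΔN, 4 were higher (including Eomes, Gata4 and Hoxb9) and 2 lower (including Msx2), against 19.9% of all genes. Between the derived lines, 2 were higher in ESC + H/F-PRAMEL7WT (including Cdkn2a) and 3 lower (including Eomes and Hoxb9), against 20.4% of all genes. Their medians were 0.16, 0.14 and 0.0067, and leaving out 1 library gave 0 to 2, 1 to 5 and 3 to 5 calls. Msx2, with 2.22 and 1.19 CPM in parental ESCs, 0.658 and 0.606 CPM in ESC + H/F-PRAMEL7WT and 0.703 and 0.422 CPM in ESC + H/F-PRAMEL7ΔN, was above 1 CPM in the parental libraries alone, so the direction of its calls was fixed by the filter, and Gata4 was above it in both libraries of the derived lines but in 1 parental one. The silent targets are not described by these counts. Cdkn2a, the cell-cycle inhibitor locus that BMI1 and CBX7 repress, had 6.55 and 8.51 CPM in parental ESCs, 12.3 and 15.4 CPM in ESC + H/F-PRAMEL7WT and 6.22 and 6.33 CPM in ESC + H/F-PRAMEL7ΔN. It was higher in ESC + H/F-PRAMEL7WT than in parental ESCs (log2 fold change 0.80, SE 0.17, limma adjusted p = 0.00985) and than in ESC + H/F-PRAMEL7ΔN (log2 fold change 1.02, SE 0.17, limma adjusted p = 0.00332), but not without the second ESC + H/F-PRAMEL7WT library (0.107 and 0.0554 from limma).

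Eomes, a mesendoderm regulator, rose in ESC + H/F-PRAMEL7ΔN from 4.59 ± 0.436 to 9.87 ± 1.04 CPM (log2 fold change 0.96, SE 0.17, limma adjusted p = 0.00513), and was lower in ESC + H/F-PRAMEL7WT than there (log2 fold change -0.82, SE 0.17, limma adjusted p = 0.0108). Without the second ESC + H/F-PRAMEL7ΔN library these calls were lost (0.0579 and 0.112 from limma), the latter also without the first ESC + H/F-PRAMEL7WT library (0.116). Hoxb9 had 2.43 and 1.74 CPM in parental ESCs, 1.42 and 1.43 CPM in ESC + H/F-PRAMEL7WT and 4.47 and 3.59 CPM in ESC + H/F-PRAMEL7ΔN, with a log2 fold change of 0.71 (SE 0.19, limma adjusted p = 0.0258) in ESC + H/F-PRAMEL7ΔN and -1.05 (SE 0.19, limma adjusted p = 0.00462) between the derived lines. The former was lost without the second parental library (0.0767 from limma) or any library of the derived lines (0.0533 to 0.189), and the latter without the first ESC + H/F-PRAMEL7ΔN library (0.0514). The level of Cdkn2a, Eomes and Hoxb9 stayed at or below 15.4 CPM in every library.

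Germline genes silenced by PRC1.6 were tested for 18 of 20. Against parental ESCs, 1 was higher (Tuba3a) in ESC + H/F-PRAMEL7WT and 3 lower (Meioc, Stag3 and Tdrkh), in ESC + H/F-PRAMEL7ΔN 6 were lower and none higher (Mael, Meioc, Smc1b, Tdrkh, Tuba3a and Tuba3b), and between the derived lines 6 were higher in ESC + H/F-PRAMEL7WT (Dazl, Mael, Slc25a31, Smc1b, Tuba3a and Tuba3b) and 3 lower (Ddx4, Meioc and Stag3). Of all genes, 13.6% were lower in ESC + H/F-PRAMEL7ΔN over parental ESCs and 6.25% higher. The share called lower was 16.3% for ESC + H/F-PRAMEL7WT over parental ESCs, and the share called higher 8.71%. For ESC + H/F-PRAMEL7WT over ESC + H/F-PRAMEL7ΔN these shares were 9.44% and 10.9%. Tuba3b and Slc25a31 were below 1 CPM in both libraries of ESC + H/F-PRAMEL7ΔN and above it in the other 4, so they were tested only through the lines in which they were higher. The medians of the 18 genes were -0.23, -0.30 and -0.12, and leaving out 1 library gave 4 to 8, 5 to 8 and 3 to 12 calls. Meioc, a meiosis regulator, fell from 21.1 ± 1.23 CPM to 2.74 ± 0.211 in ESC + H/F-PRAMEL7WT and 4.73 ± 0.0492 in ESC + H/F-PRAMEL7ΔN, with log2 fold changes of -2.56 (SE 0.14, limma adjusted p = 2.90e-05) and -1.95 (SE 0.14, limma adjusted p = 5.25e-05). Tdrkh, of the piRNA pathway, fell as well, with -1.50 (SE 0.23, limma adjusted p = 0.00265) and -1.32 (SE 0.23, limma adjusted p = 0.00430). Smc1b, a meiotic cohesin subunit, fell in ESC + H/F-PRAMEL7ΔN (log2 fold change -1.90, SE 0.28, limma adjusted p = 0.00200) and was higher in ESC + H/F-PRAMEL7WT than there (log2 fold change 1.24, SE 0.28, limma adjusted p = 0.0144), the latter not without the second ESC + H/F-PRAMEL7WT or the first ESC + H/F-PRAMEL7ΔN library (0.136 and 0.102 from limma).

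Stag3, another meiotic cohesin subunit, fell in ESC + H/F-PRAMEL7WT (log2 fold change -1.14, SE 0.15, limma adjusted p = 0.00157). It was also lower there than in ESC + H/F-PRAMEL7ΔN (log2 fold change -0.78, SE 0.15, limma adjusted p = 0.00685), which was lost without any 1 library of either line (0.0548 to 0.0667 from limma). Mael, of the piRNA pathway, was higher in ESC + H/F-PRAMEL7WT than in ESC + H/F-PRAMEL7ΔN by 0.97 (SE 0.13, limma adjusted p = 0.00114). Tuba3a, a testis tubulin, had 62.2 and 82.1 CPM in parental ESCs, 261 and 250.02 CPM in ESC + H/F-PRAMEL7WT and 23.9 and 23.0 CPM in ESC + H/F-PRAMEL7ΔN, with a log2 fold change between the derived lines of 3.39 (SE 0.13, limma adjusted p = 6.12e-07). It has a near-identical copy, Tuba3b, with which it may have shared reads. These targets thus went in both directions. The mRNA of Pcgf6 was not called in any comparison, but that of other PRC1.6 subunits was. Among them, Mga was lower in ESC + H/F-PRAMEL7WT than in parental ESCs, and Cbx3, E2f6 and Mga were lower than in ESC + H/F-PRAMEL7ΔN. A link between these subunits and the targets was not tested.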

How the data were processed

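Sequencing libraries (polyA-enriched TruSeq, single-end) were made from 2 independent dishes each of parental ESCs, ESC + H/F-PRAMEL7WT and ESC + H/F-PRAMEL7ΔN. The labels do not pair dishes across lines, and ChIP samples of the series were not analysed here. The study's methods name SortMeRNA, Trimmomatic and STAR for the RNA reads, and the submitters' processing notes list Bowtie2 2.3.4.3, Subread 1.4.6-p4 and the mm10 build, without a role for each. The deposited values are RPKM per gene, made by the authors. Columns with the authors' DESeq2 comparisons (fold changes, p-values and mean reads) were not used. The length behind the RPKM was found to be the gene's span from start to end: multiplied by it, 98.1 to 98.4% of values up to 20 reads per library came within 0.1 of a whole number, against 43.4 to 45.8% with the exon length, so RPKM as deposited understates genes with long introns. CPM were rebuilt by this multiplication with 1 constant for all libraries, which keeps the authors' scaling.

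Of 50978 rows, 47940 matched 1 gene of the annotation, and 176 repeated or date-like names, 2796 names without a match and 66 with several were left out. The 12914 genes that 2 or more libraries held above 1 CPM were fitted with limma 3.58.1 (R 4.3.3, lmFit and eBayes with a mean trend) on log2(CPM + 1), all 6 libraries together, and p-values were adjusted by Benjamini-Hochberg over these genes. A gene was called at an adjusted p under 0.05. The script was tested on simulated data with known changes. Libraries held 18254246 to 19855031 reads on genes, and counting error alone gave Kdm2b a 95% interval of 39.2 to 45.0 CPM around 42.0 in the first parental library. Non-overlap means that each library of one line lies beyond both of the other. Chromosome-centred values subtract, in each library, the median of the chromosome's genes. Alternatives were other pseudocounts, filters, scalings, tests and designs, and leaving out each library. Members and gene lists were chosen with earlier results of these data known. Described by rule were all members, Pramel7 and, from each list, up to 4 called genes per comparison. These had the largest log2 fold changes of at least 0.58 and a mean of 2 CPM or more. Tested neighbours were described on chromosomes whose median was shifted by over 0.1 against all genes. Outside this rule, other called genes were named beside the counts of their list. So were some genes given for context, such as Asxl3, Msx2, L3mbtl2 and the neighbours of Kdm2b, Rnf2 and Bmi1. Some genes that this rule would name are not reported here. Promoter windows came from RefSeq tables of GRCm38.p6, and positions are those of the mm10 build.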

Additional observations from a re-analysis of the deposited data

Results flagged for a closer look

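By the direct test of ESC + H/F-PRAMEL7WT against ESC + H/F-PRAMEL7ΔN, the derived lines differed from each other in 3 of the 10 PRC1 genes at the centre of the report, where 20.4% of all genes were called. Kdm2b was higher in ESC + H/F-PRAMEL7WT, with a log2 fold change of 0.43 (SE 0.11, limma adjusted p = 0.0266), and both libraries of ESC + H/F-PRAMEL7WT lay above both of ESC + H/F-PRAMEL7ΔN. Phc1 was lower there, with -0.42 (SE 0.086, limma adjusted p = 0.00963), and so was Rnf2, with -0.31 (SE 0.089, limma adjusted p = 0.0351), each again in both libraries. With the chromosome median subtracted these were 0.40, -0.0030 and -0.26, and only Kdm2b stayed past the threshold, with limma adjusted p of 0.0319, 0.985 and 0.0605 over ranges for all alternatives of 6.75e-04 to 0.232, 2.74e-04 to 0.985 and 0.00206 to 0.258. The cause of these differences was not tested, and each derived line is 1 clone.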

How the results depend on the processing

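Over the log2 fold changes of the members and all alternatives but the crossed pairing described below, 459 values kept their direction and their side of the threshold. Among the others that kept their direction, the call was lost by 61 and gained by 13. A further 31 changed sign, with or without a change of call. Of the 13 that gained it, 7 were of Bmi1 in ESC + H/F-PRAMEL7WT over parental ESCs, given above without a test. For ESC + H/F-PRAMEL7WT over parental ESCs, 2 members were called, and 0 were called without the filter on low values, with the replicate number as a block, without the trend or on RPKM as deposited. An unadjusted p under 0.05 with a log2 fold change above 0.58 called only Bmi1, which was tested only because of libraries in which it was high. For ESC + H/F-PRAMEL7ΔN over parental ESCs, 2 were called, and 0 without the filter, with only the compared lines, without the trend, on RPKM or under the unadjusted limits. Quantile normalization, median-ratio scaling and chromosome-centring each called 1, a loess correction for GC content and length called 4, and leaving out a library gave 0 to 3. For ESC + H/F-PRAMEL7WT over ESC + H/F-PRAMEL7ΔN, 3 were called, against 1 without the filter, with the block, without the trend, on RPKM or chromosome-centred and 0 under the unadjusted limits, and leaving out a library gave 0 to 3. A line left with 1 library was assumed to vary like the others.

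With the replicate block, 0, 2 and 1 members were called in these comparisons. Deviations of same-numbered libraries correlated at 0.3156 (parental with ESC + H/F-PRAMEL7WT), -0.3565 (parental with ESC + H/F-PRAMEL7ΔN) and -0.1239 (ESC + H/F-PRAMEL7WT with ESC + H/F-PRAMEL7ΔN), and no label ties libraries together, so the numbers were taken as names. A crossed pairing, added after seeing the data, called 2 members for ESC + H/F-PRAMEL7ΔN over parental ESCs and 3 for ESC + H/F-PRAMEL7WT over ESC + H/F-PRAMEL7ΔN.

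Signs changed as follows, and of these values only Pcgf2 had been called. In ESC + H/F-PRAMEL7WT over parental ESCs, the loess correction gave Rnf2 0.17 and Pcgf6 0.074, quantile normalization Cbx2 0.022, median-ratio scaling Cbx2 0.063 and Phc1 0.0058, and chromosome-centring Pcgf2 0.042, Cbx2 0.34 and Phc1 0.15. In ESC + H/F-PRAMEL7ΔN over parental ESCs, Kdm2b had 0.091 under loess, 0.020 under quantile normalization, 0.036 under median-ratio scaling and 0.031 chromosome-centred. In ESC + H/F-PRAMEL7WT over ESC + H/F-PRAMEL7ΔN, loess gave Pcgf1 -0.015 and Pcgf2 -0.035, and median-ratio scaling Ring1 0.0080. Leaving out a library gave, for ESC + H/F-PRAMEL7WT over parental ESCs, -0.074 to 0.21 for Ring1, -0.27 to 0.028 for Pcgf6, -0.15 to 0.11 for Cbx2 and -0.0024 to 0.18 for Cbx7. For ESC + H/F-PRAMEL7ΔN over parental ESCs it gave -0.069 to 0.22 for Ring1, -0.14 to 0.63 for Bmi1, -0.10 to 0.16 for Cbx2 and -0.16 to 0.091 for Kdm2b. For ESC + H/F-PRAMEL7WT over ESC + H/F-PRAMEL7ΔN it gave -0.047 to 0.035 for Ring1, -0.040 to 0.15 for Pcgf1, -0.038 to 0.10 for Pcgf2 and -0.023 to 0.13 for Pcgf6. The cause of these changes was not tested.

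Over all genes, 3234, 2566 and 2628 were called in these comparisons, against 1896, 1695 and 1427 without the filter and 2106, 1678 and 1546 on RPKM, while fitting only the compared lines gave 4647 for ESC + H/F-PRAMEL7WT over ESC + H/F-PRAMEL7ΔN and 1700 for ESC + H/F-PRAMEL7ΔN over parental ESCs. The share of higher calls against parental ESCs was 49.5% (ESC + H/F-PRAMEL7WT) and 46.7% (ESC + H/F-PRAMEL7ΔN) under quantile normalization, 54.5% and 43.9% chromosome-centred and 52.7% and 53.1% under loess. Depth limits Bmi1, with 14 to 39 reads per library, most among the members.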
